A study of Mus musculus with 4 samples.

Results

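The spots described here are the 100 spots of an E16.5 mouse embryo section and the 100 spots of an E13.5 section that held the most transcript of 5 heart muscle genes, and they are called heart spots. Each section was ranked on its own by the summed UMIs (unique molecular identifiers, counted RNA molecules) of Myh6, Nppa, Myl7, Mybpc3 and Tnni3 per 10000 UMIs of the spot. Ranks were taken over spots marked as lying on tissue with at least 500 UMIs. The heart spots are 200 of the 7435 such spots in the whole series, 100 of 3588 in the E16.5 section and 100 of 3220 in the E13.5 section. The 5 genes chose the spots, so their levels are given as a description of the choice and serve for nothing else.

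The study placed fresh-frozen mouse tissue, cut at 8 µm, on Visium slides, whose barcoded spots capture polyadenylated RNA from the tissue above them. A spot covers a small area and can hold several cells of different types. The E16.5 and E13.5 sections are wild-type, untreated embryo tissue, taken for work on the esophagus, and the heart was captured beside it. The labels name no animal and give 1 section per stage, so the stages have no replicate and no test was made between them. The 2 sections of P0 esophagus are not used here. Levels are UMIs summed over the spots of a group per 1000000 UMIs of the same spots (CPM), and the values in parentheses after a level or a log2 ratio are exact 95% intervals that cover counting error only, not differences between animals or sections.

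The heart spots held 5114925 UMIs at E16.5 and 3756902 UMIs at E13.5, against 100719239 and 94886927 UMIs in the other kept spots of the same sections. A heart spot had a median of 48986 UMIs (2847 to 96315) at E16.5 and 37428 UMIs (6914 to 71731) at E13.5, and the other spots had medians of 26116 and 29107 UMIs. The median score of the heart spots was 152 UMIs per 10000 at E16.5 and 139 at E13.5, against 0.819 and 0.430 in the other spots. The score fell off without a step at the chosen number, with ranks 98, 99 and 100 at 101.9, 101.7 and 101.6 and ranks 101, 102 and 103 at 101.3, 100.8 and 100.2 in the E16.5 section. In the E13.5 section ranks 98, 99 and 100 stood at 83.2, 83.1 and 82.9 and ranks 101, 102 and 103 at 81.3, 80.8 and 80.1. Altogether 172 spots at E16.5 and 133 at E13.5 reached at least 0.5 times the median score, so the set holds the spots with the most transcript of these 5 genes and not all heart muscle. The sections share 2542 spot barcodes because Visium arrays carry the same barcode list, and spots were therefore always read within their own section.

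The embryonic heart is a muscular pump whose atria and ventricles express different sets of contractile proteins, ion channels and transcription factors. Between mid-gestation and birth the ventricular wall loses much of its spongy inner trabecular layer in favour of a compact outer layer, while the muscle cells build up their contractile, calcium-handling and energy-producing machinery. Besides muscle, the heart wall contains endocardium and vessels, an outer epicardium, fibroblasts and, in its cavities, blood.

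Markers of heart muscle outside the rule were mostly higher in heart spots in both sections. The spots were chosen on heart muscle transcript, so this describes the choice and is no separate test of the label. All 22 genes of a list of sarcomere and Z-disc genes passed the minimum of 60 UMIs in the 2 heart sums together. At E16.5, 16 of the 22 were at least 2-fold higher in heart spots than in other spots, against 3.70% of all measured genes, with a median log2 ratio of 1.26. At E13.5, all 22 were, against 7.89% of all measured genes, with a median of 3.69. Over the 10252 genes past the same minimum, the median log2 ratio of heart over other spots was −0.34 at E16.5 and −0.29 at E13.5. Tnnt2, the cardiac troponin T, was found in every heart spot, with a lowest, median and highest level of 6.51, 17.5 and 51.6 UMIs per 10000 at E16.5 and 7.47, 31.9 and 77.4 at E13.5. The smaller contrast at E16.5 went with a higher level of the same list outside the heart spots, 5726 CPM in other spots at E16.5 against 1525.5 CPM at E13.5. Markers of skeletal muscle summed to 12577 CPM in the other spots at E16.5 and 751 CPM at E13.5, while the heart spots held 1987 and 326 CPM of them. Skeletal muscle expresses many of the same sarcomere genes, and its part in the contrast was not tested.

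How the heart spots were grouped on the slide depended on how many were taken. At E13.5, 91 of the 100 spots (91.0%, 83.6 to 95.8, exact binomial) formed 1 contiguous group on the spot grid, with further groups of 8 and 1. At E16.5 they fell into 8 groups, the largest of 35 spots (35.0%, 25.7 to 45.2), then 21, 19, 13, 6, 3, 2 and 1. With the 200 highest spots of each section the order was the other way, and the largest group held 91.5% of spots at E16.5 and 67.5% at E13.5. At E16.5, 4 heart spots lay in the last columns of the array, at the edge of the capture area, and at E13.5 none did. Whether either section holds the whole heart is not given in the labels.

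**Figure D1:**
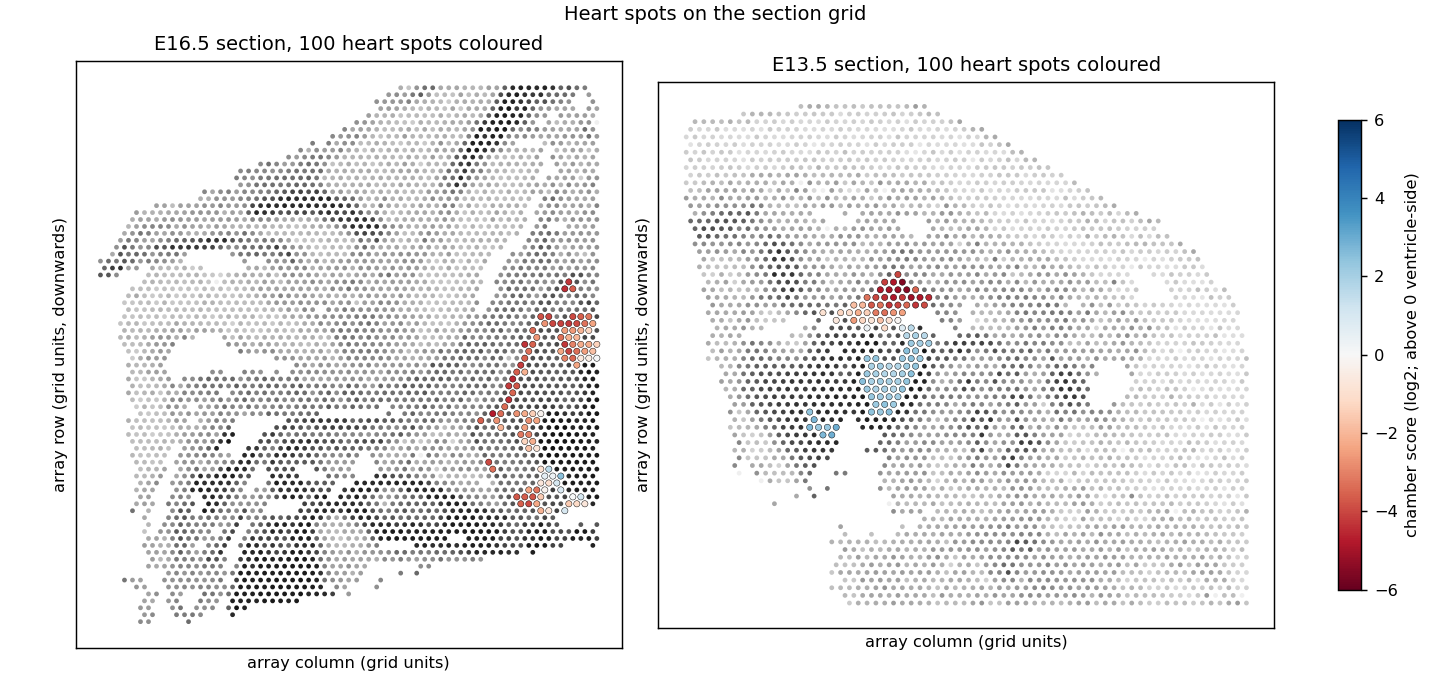
Map of the kept spots on the slide grid, E16.5 left and E13.5 right, with array column and row in grid units. Heart spots are coloured by the chamber score (log2, red below 0 for atrium-side and blue above 0 for ventricle-side), and other spots are shaded by the summed sarcomere list, darker for more UMIs per 10000. The E16.5 heart spots form 8 groups beside dark tissue that runs to the right edge of the array, and 90 of 100 are atrium-side, while the E13.5 heart spots form 3 groups with 57 of 100 ventricle-side.

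The chamber make-up of the 100 heart spots differed between the sections, and it describes the chosen spots only. A chamber score was formed for each heart spot as the log2 of Myl2, Myl3 and Myh7 UMIs per 10000, 3 ventricular or ventricle-rich contractile genes, over those of Myl4 and Sln, 2 atrium-rich genes, with 1 added to each sum. Spots below 0 are called atrium-side and those at 0 or above ventricle-side. The sides name which genes dominate a spot, not an anatomical chamber seen on an image. At E16.5, 10 spots were ventricle-side and 90 atrium-side, with a median score of −2.67 (−4.74 to 2.51). At E13.5, 57 were ventricle-side and 43 atrium-side, with a median of 1.76 (−5.55 to 2.93). The ranking genes include Nppa and Myl7, which are known as atrial genes, and their part in the split was not tested. The spots ranked just below the set were of another make-up. Ranks 101 to 200 held 53 ventricle-side and 47 atrium-side spots at E16.5 and 92 and 8 at E13.5, so the split of 10 to 90 at E16.5 does not describe the whole heart in that section. Within 0.5 of the cut lay 6 spots at E16.5 and 2 at E13.5. Neighbouring heart spots fell on the same side in 152 of 165 pairs at E16.5 (92.1%) and in 214 of 217 pairs at E13.5 (98.6%).

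**Figure D2:**
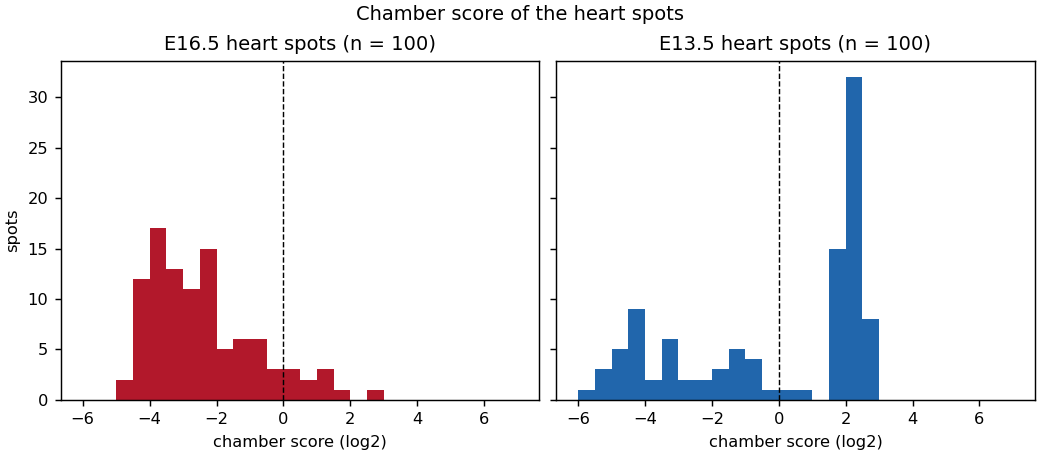
Distribution of the chamber score (log2, x axis) over the 100 heart spots of each section (number of spots, y axis), E16.5 left and E13.5 right, with a dashed line at 0. The E16.5 scores lie mostly between −4.74 and 0, and the E13.5 scores fall into a group below 0 and a group of 57 spots above it.

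Among the score's own genes Sln differed between the stages inside and outside the heart, so a score of 0 need not mark the same mixture at both. This gene, which encodes sarcolipin, a small inhibitor of the sarcoplasmic calcium pump, stood at 1526 CPM (1493 to 1561) in E16.5 heart spots and 197 CPM (183 to 212) in E13.5 heart spots, and it was also higher outside them, at 748 and 50.7 CPM. With Myl4 alone in the lower sum the split was 12 ventricle-side to 88 atrium-side at E16.5 and 57 to 43 at E13.5. With Myl2 against Sln it was 13 to 87 and 76 to 24, and with Myl2 against Myl4 it was 5 to 95 and 55 to 45. Among the 100 spots, atrium-side ones were in excess at E16.5 under each of these 4 scores. Myl2 reached 10 UMIs per 10000 in 19 heart spots at E16.5 and 59 at E13.5, and in 143 and 229 spots outside the set, so Myl2-rich tissue extended beyond the 100 spots on both sections. The 63 ventricle-side spots among the 200 highest of the E16.5 section, most of them outside the 100, held 25526 CPM of the sarcomere list, against 17252 CPM in the 100 heart spots.

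The distance from the heart spots showed where the Myl2-rich tissue lay. At E16.5 the Myl2 level in other spots was 1204, 1759 and 2367 CPM at 1, 2 and 3 grid steps from the nearest heart spot, 3526 CPM at 4 to 6 steps and 91.5 CPM beyond 6. At E13.5 it was 4704, 3365 and 1344 CPM at 1, 2 and 3 steps, 532 CPM at 4 to 6 and 31.6 CPM beyond 6. The level was thus highest at 4 to 6 steps at E16.5 and next to the heart spots at E13.5. The sarcomere list followed the same course, with 9898 CPM at 1 step and 14731 CPM at 4 to 6 steps at E16.5, and 11562 and 2812 CPM at E13.5. The E16.5 spots at 4 to 6 steps also held 13312 CPM of the skeletal muscle list, against 1984 CPM at 1 step. Tbx5, a transcription factor of the atria and the left ventricle, was highest at 1 step at E16.5 (11.3 CPM) and declined to 4.04 CPM at 4 to 6 steps. At E13.5 it did not decline over the first steps, with 15.1, 17.3 and 17.9 CPM at 1, 2 and 3 steps and 9.29 CPM at 4 to 6.

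**Figure D3:**
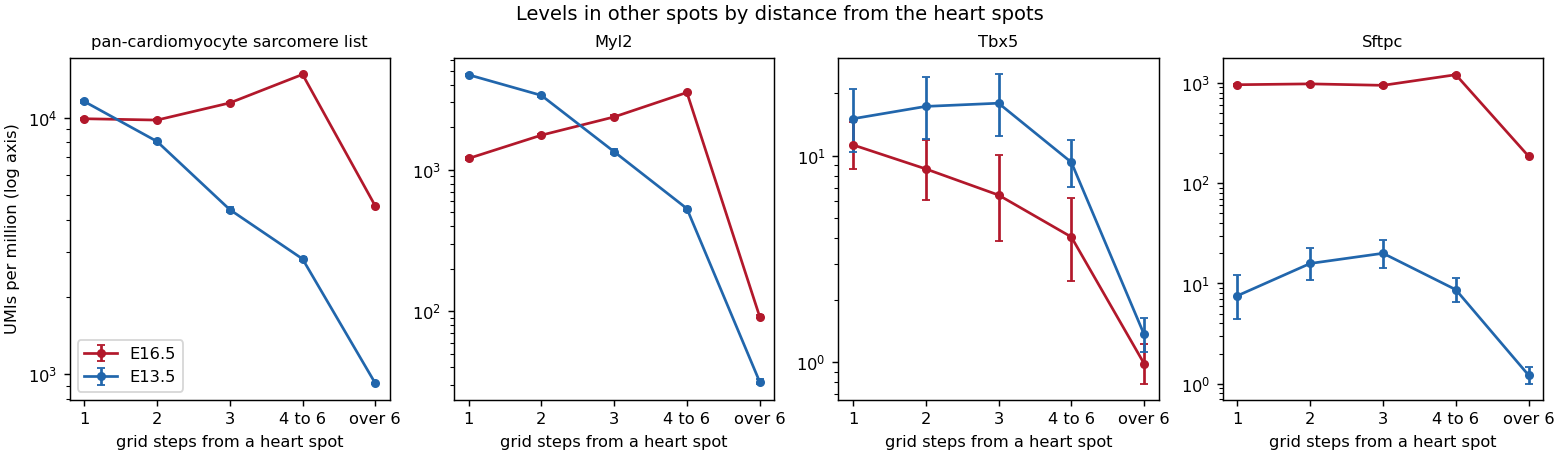
Level (UMIs per 1000000, log axis) of the sarcomere list, Myl2, Tbx5 and Sftpc in other spots by grid steps from the nearest heart spot, E16.5 in red and E13.5 in blue, with exact 95% counting intervals. Myl2 peaks at 4 to 6 steps at E16.5 and at 1 step at E13.5, and Sftpc lies between 945 and 1206 CPM up to 6 steps at E16.5.

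Of the 10252 genes measured, 299 (2.92%) were at least 2-fold higher in heart spots than in other spots of their own section at both stages. The 5 rule genes were left out of the named genes. The 20 named genes with the largest contrast at both stages were mainly ion channels, transcription factors and secreted or metabolic products of heart muscle. Because the spots were chosen on heart muscle transcript, this contrast describes what travels with the 5 genes and has no test.

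Among the transcription factors, Tbx20, required for chamber growth, stood at 179 CPM (167 to 191) in heart spots and 13.02 CPM in other spots at E16.5, and at 205 CPM (190.5 to 219.7) and 12.4 CPM at E13.5. The heart level was close at both stages, with intervals that just overlapped, and was far above the level outside. Tbx5 was 36.4 against 2.15 CPM at E16.5 and 29.3 against 2.91 CPM at E13.5. Gata4, a zinc-finger activator of heart muscle genes, was 43.99 against 4.57 CPM at E16.5 and 89.4 against 5.68 CPM at E13.5. Of the 21 measured members of a list of 25 cardiac transcription factors, 8 were at least 2-fold higher in heart spots at E16.5, against 3.70% of all genes, and 15 at E13.5, against 7.89%. The 8 were higher at both stages, against 2.92% of all genes.

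Channel and transporter genes were among the 20 too. Kcnj5, a subunit of the acetylcholine-gated potassium channel, stood at 53.6 CPM in heart spots and 2.91 CPM in other spots at E16.5, and at 43.9 and 0.991 CPM at E13.5. Gja5, the gap junction protein connexin 40 of atria, trabeculae and the conduction system, had a log2 ratio of 3.40 at E16.5 and 3.76 at E13.5. Slc17a7, which encodes a vesicular glutamate transporter of neurons, was 33.04 against 1.95 CPM at E16.5 and 39.9 against 0.432 CPM at E13.5. In the list of membrane channels and gap junctions, 8 of 14 measured members were at least 2-fold higher in heart spots at both stages, against 2.92% of all genes.

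The other named genes given here were contractile, secreted or enzymatic. Mybphl, a myosin-binding protein of atrial muscle, was 116 against 4.81 CPM at E16.5 and 50.3 against 0.548 CPM at E13.5. Ankrd1, a stretch-responsive titin-binding protein, was 814 against 68.95 CPM at E16.5 and 427 against 14.1 CPM at E13.5. Corin, the protease that processes pro-atrial natriuretic peptide, had overlapping intervals at the stages, 38.9 CPM (33.7 to 44.7) at E16.5 and 38.6 CPM (32.6 to 45.4) at E13.5, against 4.29 and 4.34 CPM outside. Mylk3, the cardiac myosin light chain kinase, Gpx3, a secreted glutathione peroxidase, and Aldh1b1, a mitochondrial aldehyde dehydrogenase, had log2 ratios of 3.17, 3.01 and 2.93 at E16.5 and 4.17, 4.17 and 3.04 at E13.5. Adamts8, a secreted protease, Rnf207, a regulator of a cardiac potassium channel, and Rd3, known from the retina, stood with Myl4 and Nppb at log2 ratios of 3.58, 2.97, 4.09, 3.03 and 3.11 at E16.5 and 2.998, 3.90, 4.08, 4.48 and 5.41 at E13.5.

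Within each section, the 25 heart spots with the highest chamber score (ventricle-leaning) were set against the 25 with the lowest (atrium-leaning). Of 7188 genes with at least 30 UMIs in the sums of each section, 21 (0.292%) were at least 2-fold higher and 19 (0.264%) at least 2-fold lower in ventricle-leaning spots at both stages, the score genes and rule genes aside. Of the ventricular list, 4 members outside the score passed this minimum, and 3 of them, Pln and Kcne1 included, were at least 2-fold higher at both stages. The 25 highest-scoring spots of the E16.5 section include 15 below the cut at 0, so the E16.5 contrast is largely one among atrium-side spots.

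Mb, the oxygen-binding protein myoglobin, was the foremost ventricle-leaning gene, at 687 CPM (642 to 735) in ventricle-leaning and 22.9 CPM (15.9 to 32.00) in atrium-leaning spots at E16.5, and at 331 CPM (290.0 to 377) and 3.91 CPM (1.27 to 9.13) at E13.5. Pln, phospholamban, a second inhibitor of the calcium pump, was 782 against 118 CPM at E16.5 and 1223 against 24.3 CPM at E13.5. Kcne1, an accessory potassium channel subunit, was 99.4 against 6.06 CPM at E16.5 and 80.3 against 2.35 CPM at E13.5. All 3 leaned the same way in both sections. Bves, a membrane protein of heart and skeletal muscle, Myh7b, a slow myosin heavy chain, and Mov10l1, an RNA helicase gene whose cardiac isoform is heart-specific, had log2 ratios of 1.16, 1.39 and 1.42 at E16.5 and 1.34, 2.40 and 1.45 at E13.5. The other ventricle-leaning genes named were Ddc, which makes dopamine and serotonin, Efnb3, an ephrin ligand, Osbpl8, Diaph3, Sord and Gm42418, with log2 ratios between 1.24 and 1.95 at E16.5 and between 1.26 and 1.94 at E13.5. Gm42418 overlaps a ribosomal RNA repeat, so its reads are uncertain.

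Towards the atrium, Shox2, a transcription factor of the sinus venosus and pacemaker region, was 6.41 CPM (2.77 to 12.6) in ventricle-leaning and 37.04 CPM (27.9 to 48.2) in atrium-leaning spots at E16.5, and 1.43 CPM (0.0363 to 7.99) and 133 CPM (114 to 155) at E13.5. Its summed level was thus higher in the atrium-leaning spots of each section. At E16.5 it was not found in all atrium-side tissue, as a group of 14 atrium-side spots described below held no UMI of it. Cacna1d, a calcium channel of atrial and pacemaker cells, and Vwf, the endothelial von Willebrand factor, had log2 ratios of −1.20 and −1.69 at E16.5 and −3.40 and −1.27 at E13.5. Camk1d, Adamtsl4, Olfm1, Tspan5, Lrrc17 and the unnamed D430019H16Rik lay between −2.25 and −1.16 at E16.5 and between −4.39 and −1.45 at E13.5. Slc17a7 and Rd3 had no UMI in the E13.5 ventricle-leaning spots, where the 3 UMIs that a count of 0 allows put them at least 25.3-fold and 17.5-fold lower than in the atrium-leaning spots.

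Some genes, chosen here after their values were seen, leaned far to the atrium-leaning spots at E13.5 and less at E16.5. Mybphl was 96.2 CPM in ventricle-leaning and 139 CPM in atrium-leaning spots at E16.5, against 1.43 and 121 CPM at E13.5. Adamts8 and Kcnj3, the partner subunit of Kcnj5, had log2 ratios of −0.83 and −0.20 at E16.5 and −4.46 and −3.21 at E13.5. The E16.5 ventricle-leaning spots themselves are mostly atrium-side, so stage and the make-up of the class cannot be told apart here. Of the conduction list, 7 of 8 measured members were at least 2-fold lower in ventricle-leaning spots at E13.5, against 5.68% of all genes, and 2 of 8 at E16.5, against 0.863% of all genes.

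The contrast of E16.5 with E13.5 over all 100 spots a section covered 10252 genes, of which 509 (4.96%) were at least 2-fold higher and 314 (3.06%) at least 2-fold lower at E16.5. Among 889 heart-enriched genes, those at least 2-fold higher in heart than in other spots in either section, 101 (11.4%) were higher and 81 (9.11%) lower. A gene can enter this set through the stage at which its heart level is high, as the airway genes below did at E16.5, so these shares are partly fixed by the choice and nothing is read from them. With rule, mitochondrial and globin genes left out of the totals the split was 172 higher and 64 lower, and with ratios centred on the median of all genes it was 185 higher and 63 lower. The median log2 ratio over all genes was −0.26 in heart spots, −0.30 in atrium-side spots, −0.27 in ventricle-side spots and −0.24 in other spots, and the ratios below are best read against these medians. Fewer cells of a type and less RNA per cell cannot be told apart in sums of this kind. Because 90 of 100 spots were atrium-side at E16.5 and 43 of 100 at E13.5, stage ratios below are given within a side as well or instead.

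Within atrium-side spots (90 against 43), 506 of 9326 genes (5.43%) were at least 2-fold higher and 391 (4.19%) at least 2-fold lower at E16.5. With the totals reduced in the same way these were 638 higher and 163 lower. Within ventricle-side spots (10 against 57), 104 of 5214 genes (1.99%) were higher and 421 (8.07%) lower. A wider set of the 200 highest spots a section, which gave 63 ventricle-side spots at E16.5 and 149 at E13.5, had 234 of 9106 genes (2.57%) higher and 499 (5.48%) lower. Of the 509 genes higher over all heart spots, 465 were measured on the atrium side and 400 of these were higher there too, and 94 were measured on the ventricle side and 60 were higher there. Of the 314 lower genes, 164 of 230 were lower on the atrium side and 118 of 153 on the ventricle side, with 45 higher and 63 lower genes shared by all 3 contrasts. The spots of each side are a part of all heart spots, so these overlaps are largely fixed in advance and nothing is read from them. The sides were formed after the values had been seen and with Myl2, Myl3, Myh7, Myl4 and Sln. The stage ratios of these 5 genes within a side, and the values of lists that hold them, are therefore partly fixed by the cut. Chamber mixture within a side can also differ between the stages, as given for the trabecular genes below.

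The stage ratios of ventricular genes depended on which spots entered. Over all heart spots, 9 of 10 measured members of the ventricular list of 11 were at least 2-fold lower at E16.5, against 3.06% of all genes, with a median log2 ratio of −1.82. Within atrium-side spots the median over 6 measured members was 0.78, within ventricle-side spots it was −0.998 over 9, and in the ventricle-side spots of the wider set it was −0.44 over 11. The list holds the score genes Myl2, Myl3 and Myh7, so its medians within a side are partly fixed by the cut. Myl2, the ventricular regulatory myosin light chain, was 711 CPM (688 to 735) at E16.5 and 4984 CPM (4912 to 5056) at E13.5 over all heart spots, a log2 ratio of −2.81, but 6237 and 8719 CPM in the wider ventricle-side set, a log2 ratio of −0.48 (−0.51 to −0.46). Irx4, the homeobox factor that keeps ventricular identity, was 18.9 CPM (9.09 to 34.8) at E16.5 and 44.1 CPM (35.1 to 54.7) at E13.5 in ventricle-side spots, a log2 ratio of −1.16 (−2.33 to −0.27). Hey2, the factor of compact ventricular muscle, was 28.4 CPM (15.9 to 46.9) and 38.2 CPM (29.9 to 48.2) there, and these intervals overlap. The part of chamber mixture within the ventricle side in the values of Irx4 and Hey2 was not tested.

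The medians of the shared sarcomere genes were close to level between the stages. Over all heart spots 1 of 22 was at least 2-fold higher at E16.5, against 4.96% of all genes, and none lower, with a median of −0.14. Within atrium-side spots 4 of 22 were at least 2-fold higher and none lower, against 5.43% of all genes higher, with a median of 0.01. Within ventricle-side spots 2 of 22 were higher and none lower, against 1.99% of all genes higher, with a median of 0.08. The 1 gene higher over all heart spots was Myom2, a protein that crosslinks myosin at the centre of the sarcomere. It stood at 112 CPM (85.1 to 144) at E16.5 and 2.66 CPM (0.862 to 6.198) at E13.5 in ventricle-side spots, and at 115 CPM (105 to 125) and 17.6 CPM (12.1 to 24.7) in atrium-side spots, and its intervals were apart on both sides. Its log2 stage ratio over all heart spots, 3.48, was close to that in other spots, 3.47. Myom1, its close relative, had −0.21 on the ventricle side and −0.24 on the atrium side. Ankrd1 passed 2-fold within each side, with 1290.3 CPM (1195 to 1391) at E16.5 and 593 CPM (559 to 629) at E13.5 in ventricle-side spots, and 759.7 CPM (735 to 785) and 261 CPM (238 to 285) in atrium-side spots. Actc1, cardiac alpha-actin, and Ttn, titin, had log2 ratios of 0.13 and 0.29 on the atrium side and 0.11 and 0.35 on the ventricle side. Tnni1, the fetal slow troponin I, was lower at E16.5 on both sides, at −0.69 (−0.76 to −0.63) and −0.52 (−0.63 to −0.42), but at −0.02 in the wider ventricle-side set.

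Genes of the trabecular layer stood far lower in ventricle-side spots at E16.5, of which there were 10. Of 8 listed, 6 were at least 2-fold lower over all heart spots (median −1.79), against 3.06% of all genes. In ventricle-side spots 7 of 7 measured were (median −3.36), against 8.07% of all genes, and in the ventricle-side spots of the wider set 7 of 8 (median −2.76), against 5.48%. Over 6 measured in atrium-side spots the median was 0.41, in the other direction. The ventricle-side spots of the 2 stages were not alike in ventricular transcript. The ventricular list summed to 9815 CPM in the 10 spots at E16.5, against 21007 CPM in the 57 spots at E13.5. In the wider ventricle-side set it was closer, at 17649.5 and 19162 CPM. The part of chamber mixture in the ventricle-side stage ratios of the trabecular genes, Nppb included, was not tested. The upstream sequences of Nppb and Bmp10 are shown because they are the trabecular genes that carry a common sequence word, and that of Myl2 is set beside them as a ventricular gene that carries it too. Each line gives the 250 bases before a RefSeq start site (mouse build GRCm38.p6), 5′ to 3′ on the gene's strand, in lower case with AGATAA or its reverse complement TTATCT, a word that GATA factors are known to bind, in capitals. The Nppb window (gene ENSMUSG00000029019) lies at chr4:147985650-147985899 on the plus strand, that of Bmp10 (ENSMUSG00000030046) at chr6:87428744-87428993 on the plus strand, and that of the first of the 2 start sites of Myl2 (ENSMUSG00000013936) at chr5:122092474-122092723 on the plus strand.
Nppb: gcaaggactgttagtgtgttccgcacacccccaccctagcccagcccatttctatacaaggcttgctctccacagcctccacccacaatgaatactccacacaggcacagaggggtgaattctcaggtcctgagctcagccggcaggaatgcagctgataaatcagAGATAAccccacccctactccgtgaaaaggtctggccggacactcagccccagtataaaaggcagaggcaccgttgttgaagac
Bmp10: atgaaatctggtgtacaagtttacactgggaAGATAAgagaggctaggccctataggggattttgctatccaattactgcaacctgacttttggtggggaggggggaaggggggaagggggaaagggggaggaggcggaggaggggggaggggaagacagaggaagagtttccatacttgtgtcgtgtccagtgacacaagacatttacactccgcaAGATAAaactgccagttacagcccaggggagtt
Myl2: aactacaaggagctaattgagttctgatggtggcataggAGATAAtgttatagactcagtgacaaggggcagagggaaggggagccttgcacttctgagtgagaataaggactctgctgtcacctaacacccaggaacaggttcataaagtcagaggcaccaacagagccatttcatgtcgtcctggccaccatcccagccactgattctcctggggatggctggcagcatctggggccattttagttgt
The word was found once before Nppb, 84 bases from the start site, and at 2 places before Bmp10, 219 and 33 bases from it. Before the first start site of Myl2 it lay 211 bases from the start. The window of the other Myl2 start site and those of the ventricular score genes Myl3 and Myh7 do not hold it. Of the 7 trabecular genes whose start sites are in the table, Nppb and Bmp10 are the 2 that hold the word, against 11.4% of all genes in it. By start site these are 2 of 10, and 9.99% of all 32851 start sites hold the word on either strand of the same window. The windows of Cited1, Irx3, Slit2, Gja5 and Etv1 do not hold it, though Cited1, Irx3 and Slit2 differed between the stages by more than Nppb did. A match is a description of the letters, not a binding site.

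Bmp10, the secreted growth factor of trabecular muscle, had 1 UMI in the 10 ventricle-side spots at E16.5, 1.89 CPM (0.04797 to 10.6), and 132 UMIs in the 57 ventricle-side spots at E13.5, 70.1 CPM (58.7 to 83.2). In the wider ventricle-side set it had 1 UMI in 63 spots at E16.5 and 157 in 149 spots at E13.5. The wider set thus added no UMI of Bmp10 at E16.5. At E13.5 it was at least 29.3-fold higher in ventricle-leaning than in atrium-leaning spots, where no UMI was found.

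Cited1, a transcriptional co-regulator found in trabecular muscle, had a lowest, median and highest level of 0.361, 0.654 and 1.99 UMIs per 10000 over ventricle-side spots at E16.5, and of 0.216, 11.1 and 22.8 at E13.5. The highest E16.5 spot lay far below the E13.5 median, though single E13.5 spots lay as low. In CPM this was 83.4 CPM (60.6 to 112) at E16.5 and 1059.8 CPM (1014 to 1107) at E13.5, a log2 ratio of −3.65 (−4.13 to −3.24), and of −2.94 in the wider set. Irx3, a homeobox factor of the ventricular conduction network, and Slit2, a guidance ligand, had log2 ratios of −3.36 and −3.36 on the ventricle side and −2.91 and −3.16 in the wider set. Gja5 stood at −1.81, and Etv1, a factor of fast-conducting muscle, at −0.34, its interval of −1.55 to 0.61 holding 0. Gtsf1, named among the lowest heart-enriched genes and known from the germ line, went the same way, with 0 and 302 UMIs, at least 28.2-fold lower at E16.5. Cdkn1c, the growth-restraining cell cycle inhibitor p57, which is also known from trabecular muscle, was 129 CPM at E16.5 and 633 CPM at E13.5, a log2 ratio of −2.29 (−2.67 to −1.94).

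Nppb, the B-type natriuretic peptide, behaved differently on the 2 sides. In ventricle-side spots it was 109.9 CPM (83.4 to 142) at E16.5 and 335 CPM (309.6 to 362) at E13.5, a log2 ratio of −1.60 (−2.02 to −1.22). In atrium-side spots it was 67.8 CPM (60.5 to 75.8) and 5.33 CPM (2.56 to 9.81), a log2 ratio of 3.60 (2.77 to 4.74). The gene was thus lower in E16.5 ventricle-side spots and higher in E16.5 atrium-side spots, and over all heart spots the ratio was −1.24. Of the 311 UMIs of Nppb in E16.5 atrium-side spots, 251 came from 1 piece of 14 spots, described below.

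**Figure D4:**
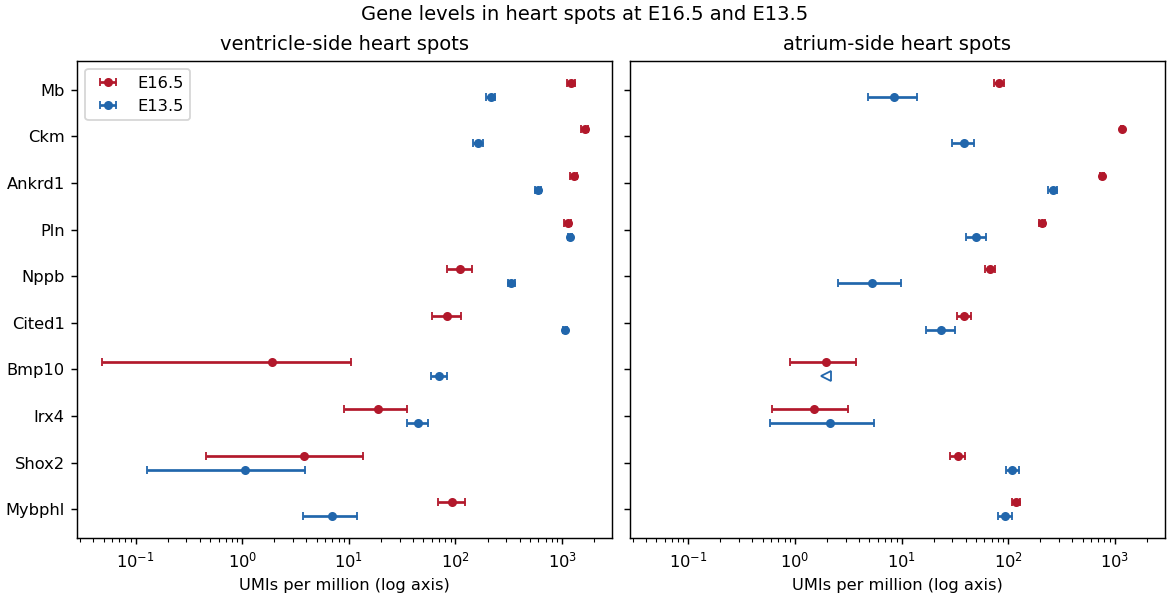
Level (UMIs per 1000000, log axis) of 10 genes in ventricle-side spots (left) and atrium-side spots (right), E16.5 in red above E13.5 in blue, with exact 95% counting intervals and an open triangle for the upper limit where no UMI was found. Mb, Ckm and Ankrd1 lie to the right at E16.5 on both sides, Bmp10 and Cited1 lie to the left at E16.5 on the ventricle side, and Shox2 lies to the left at E16.5 on the atrium side.

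Some genes of energy supply were much higher at E16.5 on both sides, as they were outside the heart. Mb was 81.97 CPM (73.9 to 90.7) at E16.5 and 8.54 CPM (4.88 to 13.9) at E13.5 in atrium-side spots, and 1211 CPM (1119 to 1308) and 215 CPM (194 to 237) in ventricle-side spots. Ckm, the muscle creatine kinase, was 1169.8 and 38.4 CPM on the atrium side, a log2 ratio of 4.92 (4.59 to 5.28), and 1624 and 163 CPM on the ventricle side, a log2 ratio of 3.32 (3.13 to 3.51). In the wider ventricle-side set, 11 of 33 measured members of the fatty acid and mitochondrial energy list were at least 2-fold higher at E16.5 and the median was 0.53, against 2.57% of all genes and a median of −0.28. On the atrium side 6 of 34 were, against 5.43% of all genes, with a median of 0.07 against −0.30, and over all heart spots 4 of 34, against 4.96% of all genes. The list differed more outside the heart, where 26 of 34 were at least 2-fold higher at E16.5, against 8.17% of all genes, with a median of 2.16. Cox8b and Ckmt2, muscle forms of a cytochrome c oxidase subunit and of mitochondrial creatine kinase, had log2 ratios of 3.003 and 3.30 on the atrium side and 2.27 and 2.83 in the wider ventricle-side set. Fabp3, the heart fatty acid binding protein, Cd36, the fatty acid transporter, and Lpl, lipoprotein lipase, stood at 1.28, 1.32 and 1.11 in the wider set, while Cpt1b, which admits fatty acids to mitochondria, stood at −0.40.

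Ckm is a skeletal muscle marker too, and outside the heart spots it was 1313 CPM at E16.5 and 9.26 CPM at E13.5. The other spots had a log2 stage ratio of 7.15 for Ckm and 2.17 for Mb. The skeletal muscle list as a whole was 1987 CPM in E16.5 heart spots and 326 CPM in E13.5 heart spots, with 9 of 10 measured members at least 2-fold higher at E16.5, against 4.96% of all genes, and its part in these results was not tested. The skeletal actin Acta1 was 497 CPM in ventricle-leaning and 238 CPM in atrium-leaning spots at E16.5, and 73.1 and 125 CPM at E13.5, while Mb leaned to the ventricle at both stages. Transcripts of the mitochondrial genome made up 6.77% of UMIs in E16.5 heart spots and 4.45% in E13.5 heart spots, against 4.21% and 2.44% in other spots.

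The calcium-handling genes did not all differ one way between the stages. Atp2a2, the calcium pump of the sarcoplasmic reticulum, was 1212 CPM (1181 to 1245) at E16.5 and 927 CPM (884 to 971) at E13.5 on the atrium side, and 1387 CPM (1288 to 1491) and 725 CPM (687 to 764) on the ventricle side. Ryr2, the calcium release channel, had log2 ratios of 0.49 and 1.01, and Casq2, the cardiac calcium store protein, 1.90 and 0.62, on the atrium and ventricle sides. Pln was higher at E16.5 on the atrium side, 2.06 (1.76 to 2.38), and its ratio on the ventricle side, −0.08 (−0.21 to 0.05), had an interval that held 0. Slc8a1, the sodium-calcium exchanger, was lower on both, −0.78 (−0.93 to −0.64) and −0.82 (−1.06 to −0.58). Over the list of 20, 3 members were at least 2-fold higher and 1 lower on the atrium side (median 0.06), against 5.43% and 4.19% of all genes. The list holds the score gene Sln. In the wider ventricle-side set 4 of 19 measured were higher, against 2.57%, and none lower (median 0.26).

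Casq1, the calsequestrin known from fast skeletal muscle, differed between the stages in opposite directions inside and outside the heart. In heart spots it was 51.8 CPM (45.8 to 58.4) at E16.5 and 231 CPM (216 to 247) at E13.5, a log2 ratio of −2.15 (−2.36 to −1.96). In other spots it was 165 and 10.00 CPM, a log2 ratio of 4.04. It was lower at E16.5 on the atrium side (−2.43) and the ventricle side (−1.77) alike, while 9 of 10 measured skeletal muscle markers were at least 2-fold higher over all heart spots.

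Genes of the atrial inflow and pacemaker region were lower in the pooled E16.5 atrium-side spots. Of 10 measured members of the conduction list of 13, 6 were at least 2-fold lower and none higher, with a median of −1.17, against 4.19% of all genes. In other spots 2 of 10 were at least 2-fold lower and none higher, with a median of −0.55. Over all genes there, 420 of 10252 were lower, with a median of −0.24. Shox2 was 33.6 CPM (28.5 to 39.3) at E16.5 and 109 CPM (94.9 to 125) at E13.5, and Hcn4, the pacemaker channel, was 11.6 CPM (8.65 to 15.1) and 35.7 CPM (27.7 to 45.4). The intervals of both genes are apart, but the Hcn4 value depends on which spots are pooled. In the contiguous piece of 34 E16.5 spots described further on Hcn4 was 26.1 CPM (19.1 to 34.8), an interval that overlaps that of the E13.5 atrium-side piece, 36.01 CPM (27.9 to 45.7), and the other 3 E16.5 pieces held 2, 0 and 2 UMIs. Shox2 in the 34-spot piece was 63.5 CPM (52.3 to 76.4), below the 110.2 CPM (95.6 to 126) of the E13.5 piece. Cpne5, a marker of the developing conduction system, had a log2 ratio of −2.15 (−2.75 to −1.58), while Tbx3, the repressor that keeps conduction tissue from becoming working muscle, had −0.53 (−1.08 to 0.05).

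The factors of atrial identity were lower at E16.5 too, as they were outside the heart. Nr2f2 and Nr2f1, the COUP-TF factors of atrial identity, had log2 ratios of −1.35 (−1.60 to −1.09) and −1.64 (−1.97 to −1.31), and in the other spots of the sections −1.30 and −1.47. Of the full atrial list, 2 of 10 measured members were at least 2-fold higher and 2 lower in atrium-side spots, against 5.43% and 4.19% of all genes, with a median of −0.33. That list holds the score genes Myl4 and Sln. The general heart factors Nkx2-5 and Gata4 had log2 ratios of −0.87 and −1.19, and Tbx5 and Tbx20 stood at −0.19 and −0.48. Kcnj3 and Kcnj5, the subunits of the acetylcholine-gated channel, had −0.01 (−0.42 to 0.43) and −0.26 (−0.58 to 0.07), and both intervals held 0.

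The atrium-side spots of E16.5 were not 1 piece of tissue. Contiguous pieces of at least 6 spots on one side numbered 5 at E16.5, 4 atrium-side pieces of 34, 19, 14 and 13 spots and 1 ventricle-side piece of 6, and 3 at E13.5, an atrium-side piece of 42 and ventricle-side pieces of 48 and 8 spots. The genes shown for them were chosen after their values were seen. Tnnt2 stood at 1881, 1321, 1935 and 2110.0 CPM in the 4 atrium-side pieces, whose spots were all chosen on heart muscle transcript.

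The 34-spot and 19-spot pieces carried airway transcript. Scgb3a2, a secretoglobin of airway club cells, was 3062 CPM (2981 to 3145) and 4998 CPM (4856 to 5144) in them, against 38.2 and 28.4 CPM in the 14-spot and 13-spot pieces. Sftpc, surfactant protein C of the distal lung, was 969.6 and 94.4 CPM, against 32.9 and 55.2 CPM. The same 2 pieces held the inflow gene Shox2 at 63.5 and 37.5 CPM, against 0 and 10.03 CPM. In the mouse, heart muscle is known to sheathe the pulmonary veins into the lung, and the labels do not say which vessels or chambers the pieces hold.

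The 14-spot piece had another profile. Nppb was 331 CPM (291 to 374) there, against 4.53, 1.07 and 30.1 CPM in the 34-spot, 19-spot and 13-spot pieces and 5.38 CPM in the E13.5 atrium-side piece. Shox2 had no UMI there. The piece with the least Shox2 was thus the one with the most Nppb among the atrium-side pieces. It also carried Rag1, the recombinase of developing lymphocytes, at 55.3 CPM (39.9 to 74.8), against 1.13 to 13.4 CPM in the other atrium-side pieces.

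**Figure D5:**
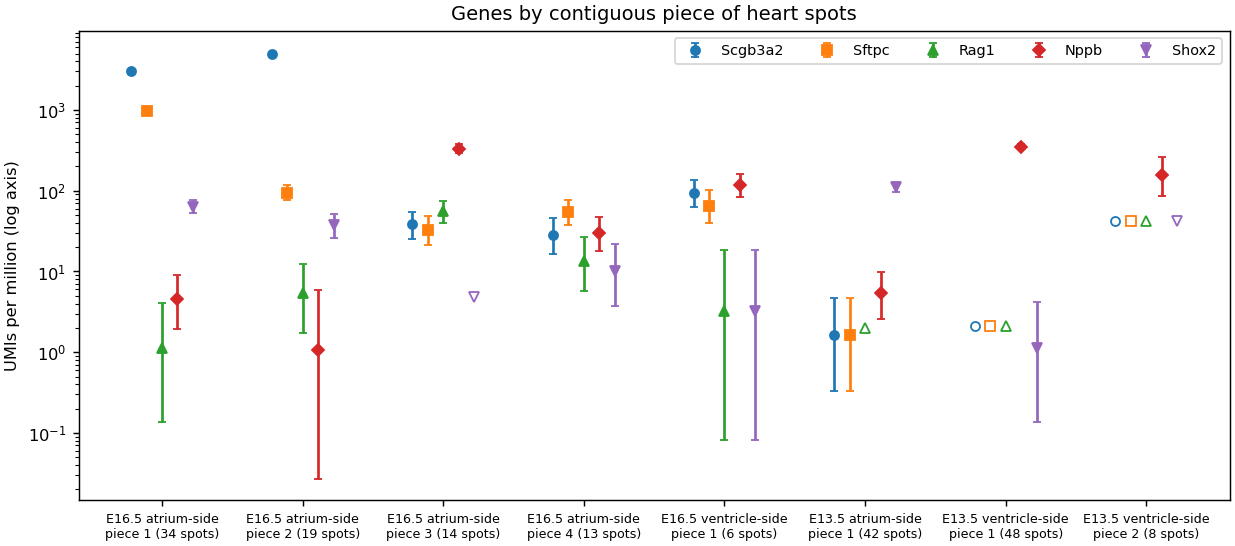
Level (UMIs per 1000000, log axis) of 5 genes in each contiguous piece of at least 6 heart spots (x axis), E16.5 pieces left of E13.5 pieces, with exact 95% counting intervals and open symbols for the upper limit where no UMI was found. Scgb3a2 exceeds 3000 CPM in the 34-spot and 19-spot pieces only, Nppb is highest in the 14-spot piece among the atrium-side pieces, and Shox2 has no UMI in that piece.

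Airway and lung genes led the stage contrast of all heart spots. Scgb3a2 was 2023 CPM (1984 to 2062) in E16.5 heart spots and 0.799 CPM (0.165 to 2.33) in E13.5 heart spots, with a lowest, median and highest spot level of 0, 1.24 and 168 UMIs per 10000 at E16.5. Reg3g, Cbr2 and Scgb1a1, further products of airway epithelium, had no UMI in E13.5 heart spots and were at least 232-fold, 172-fold and 47.3-fold higher at E16.5. Scgb3a1, Muc5b, Wfdc2, Lypd2, Hp, Isg20, Ccdc153 and Smgc completed the 12 highest heart-enriched genes. Among the genes not enriched in the heart, Krt4 and Krt13, keratins of squamous epithelium such as that of the esophagus, were 93.8 and 90.5 CPM at E16.5 and 0 and 0.266 CPM at E13.5. The lung list summed to 622 CPM in heart spots and 430 CPM in other spots at E16.5, and to 12.8 and 19.5 CPM at E13.5, where 3 of its 8 members were at 0 in the heart spots. All 5 measured members were at least 2-fold higher at E16.5 in heart spots, against 4.96% of all genes, and in other spots, against 8.17%. Sftpb, surfactant protein B, had 131 UMIs in E16.5 heart spots and 0 in E13.5 heart spots, at least 32.1-fold higher. The thymus list summed to 48.1 CPM in E16.5 heart spots and 3.46 CPM in E13.5 heart spots, and Trbc1, a T cell receptor chain, had 335 UMIs at E16.5 and 0 at E13.5. The part of neighbouring lung, airway and thymus in these values was not tested.

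Blood transcript in the heart spots differed between the stages in amount and in kind. The 10 blood genes made up 19.1% of UMIs in E16.5 heart spots and 9.62% in E13.5 heart spots, against 4.35% and 2.80% in other spots. Single heart spots ranged from 487 to 4635 UMIs per 10000 at E16.5 and from 52.00 to 4073 at E13.5. Hbb-y, the embryonic beta-like globin of primitive red cells, was 16.03 CPM (12.8 to 19.9) at E16.5 and 23339.7 CPM (23186 to 23495) at E13.5, with no UMI in the 10 E16.5 ventricle-side spots. Its E16.5 and E13.5 spot ranges did not overlap, with a highest E16.5 spot of 2.43 and a lowest E13.5 spot of 9.66 UMIs per 10000. Hba-x, the embryonic alpha-like globin, was 18.96 and 2534 CPM, while the adult-type Hbb-bs and Hba-a1 were 96246 and 40169.9 CPM at E16.5 and 26725 and 18317 CPM at E13.5. Near-identical adult globin copies can share reads, so their split between copies is uncertain. Other spots differed in the same directions, with log2 ratios of −10.62 for Hbb-y and 1.32 for Hbb-bs.

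Transcripts of the plasma proteins Afp and Alb were lower in E16.5 heart spots, and so were S100a8 and S100a9. Both plasma proteins are products of fetal liver, and Afp and Alb were 0.587 and 1.37 CPM at E16.5 and 126 and 97.95 CPM at E13.5. In other spots the liver list was 59.2 CPM at E16.5 and 1771 CPM at E13.5, so the liver genes differed the same way outside the heart. S100a8 and S100a9, calcium-binding proteins of granulocytes, had log2 ratios of −3.67 and −2.98 in heart spots and −1.22 and −1.13 in other spots. Lyz2, the lysozyme of macrophages and granulocytes, had a log2 ratio of −3.32 (−4.25 to −2.61) on the ventricle side, and on the atrium side 0.26 (−0.21 to 0.76), an interval that holds 0. Hsd3b6, a steroid dehydrogenase, was lower on both sides, at −3.35 (−9.25 to −1.38) and −5.23 (−7.76 to −3.81), and in other spots at −5.48. Lpar3, a lysophosphatidic acid receptor, and Slc16a12, a creatine transporter, were among the 12 lowest heart-enriched genes and had −1.64 and −3.66 on the ventricle side and −1.37 and −1.23 on the atrium side. In other spots these 2 genes stood at 0.27 and −0.32.

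Matrix genes were higher at E16.5. Of 18 genes of the fibroblast and matrix list, 9 were at least 2-fold higher over all heart spots, against 4.96% of all genes, and none lower (median 1.11). In other spots 6 were (median 0.87), against 8.17% of all genes. Col1a1, the fibrillar collagen, was 1707 CPM (1669 to 1745) at E16.5 and 792 CPM (752 to 834) at E13.5 in atrium-side spots, and 1211 CPM (1119 to 1308) and 189 CPM (169 to 209) in ventricle-side spots. Dcn, the collagen-binding decorin, had log2 ratios of 1.11 and 2.91, and Eln, elastin of the great vessels, 2.26 and 2.68. Myh11, the smooth muscle myosin, was 80.9 CPM (73.3 to 89.1) at E16.5 and 7.19 CPM (4.74 to 10.5) at E13.5 over all heart spots. At E13.5, 10 of 17 measured matrix genes were at least 2-fold lower in ventricle-leaning than in atrium-leaning spots, against 5.68% of all genes, and at E16.5 none of 17 were, against 0.863%.

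Endocardial genes were lower at E16.5 on the ventricle side, and some were lower elsewhere too. In the wider ventricle-side set, 5 of 7 measured members of the endocardium list were at least 2-fold lower at E16.5, against 5.48% of all genes, with a median of −1.53. In the ventricle-side spots of the 100, 2 of 5 measured were, against 8.07% of all genes, with a median of −0.9995. In atrium-side spots 2 of 8 were (median −0.57), against 4.19% of all genes. In other spots 2 of 8 were (median −0.22), against 420 of 10252 genes. The part of chamber mixture in these ratios was not tested. The general endothelial list had 1 of 12 lower and a median of −0.17 in the wider set. Plvap, a diaphragm protein of endocardium and fenestrated vessels, had a log2 ratio of −1.65 (−2.02 to −1.31) in that set, and Npr3, the natriuretic peptide clearance receptor of endocardium, −1.46 (−1.88 to −1.07). Fabp4, a fatty acid binding protein of coronary and fat-tissue vessels, was 440.5 CPM (422 to 459) in E16.5 heart spots and 137 CPM (125 to 149) in E13.5 heart spots, and 3745 and 21.5 CPM in other spots. Of the 30 cell cycle genes, 2 were at least 2-fold lower at E16.5 over all heart spots, against 3.06% of all genes, and none higher (median −0.59), and other spots had a like median of −0.58. Mki67, a proliferation marker, was 83.1 CPM (75.4 to 91.4) at E16.5 and 84.4 CPM (75.3 to 94.2) at E13.5.

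The epicardium list was higher in E16.5 heart spots, at 478 CPM against 188 CPM at E13.5, and 5 of 12 measured members were at least 2-fold higher, against 4.96% of all genes. The median log2 ratio of the list was 0.72 in atrium-side spots of the 100 and −0.23 in atrium-side spots of the wider set, in the other direction. In the E13.5 group of 91 spots, 60 lay at its border, with at least 1 neighbouring spot outside it, and 31 lay inside it. Border spots held 224 CPM of the epicardium list and inner spots 124 CPM, with 2 of 8 measured members at least 2-fold higher at the border, against 1.44% of all genes. In the E16.5 group of 35 spots, 27 were border spots with 436 CPM and 8 were inner spots with 393 CPM. Upk3b, a marker of epicardium and other mesothelium, was 104 CPM (78.5 to 136) at E16.5 and 4.78 CPM (2.19 to 9.08) at E13.5 in ventricle-side spots, and 31.8 CPM (26.9 to 37.4) and 43.2 CPM (34.3 to 53.7) in atrium-side spots. Position within the set and stage cannot be told apart for this list.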

How the data were processed

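Per the file headers, the UMI counts per gene and spot were deposited by the authors as filtered Space Ranger 2.0.0 matrices, and per the submitters' processing notes reads were placed on mm10. The aligner's settings are not given in the sources used here. The deposited position files give an in-tissue mark and the array row and column of each spot, coordinates rather than measurements. Tissue images were not used here. Sections are 1 E16.5, 1 E13.5 and 2 P0, and all counts were whole numbers (105835664 UMIs at E16.5 and 98645152 at E13.5).

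Spots on tissue with at least 500 UMIs were kept, ranked by the 5 rule genes and the 100 highest per section taken, ties by column order. The members, gene lists and comparisons were chosen with earlier results of these data known. Counts were summed over spots, divided by the sum of UMIs of the same spots and given per 1000000 (CPM). Log2 ratios add 0.5 to each sum. Genes needed 60 UMIs in the compared sums, or 30 per section for the chambers. Intervals are 95%, exact Poisson for levels, exact conditional binomial for ratios and Clopper-Pearson for shares. A floor of 3 UMIs over the group stands for a count of 0. No p-value was computed, as each stage is 1 section. A count of called genes means at least 2-fold.

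Named genes were the 20 with the highest lower-of-both-sections ratio of heart over other spots (at least 100 UMIs in heart spots of each section), the 12 highest and 12 lowest stage ratios among heart-enriched genes and 6 each way among the rest (at least 100 UMIs in both sums together), and 12 each way between chambers. Rule genes, mitochondrial genes, globins and sex-linked genes were left out of these, and score genes between chambers alone, and list members were named besides. Some genes that the rule or the lists held are not reported here by name. Aldoa has 2 gene IDs and was left out. Promoter windows came from RefSeq (GRCm38.p6), where 339 of 464 listed or named genes matched. Neighbours are the 6 adjacent grid places. The ratio code was tested on simulated data. Alternatives were 50 or 200 spots, a minimum of 2000 UMIs, the largest contiguous group, other totals, other gene minimums, other class sizes and the sides; those by side were added after the data were seen. Python 3.11.15, NumPy 2.4.6, SciPy 1.17.1, pandas 2.3.3 and Matplotlib 3.10.9 were used.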

Additional observations from a re-analysis of the deposited data

Results flagged for a closer look

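Genes from the lists were picked out where the heart-over-other ratio reached 2-fold in opposite directions in the 2 sections. There were 11, and with 1 section per stage the difference between the stages was not tested. The lists hold many muscle and energy genes, and the share over all measured genes is not given here. Nothing is therefore read from the number or kind of the 11 genes. Their log2 ratios of heart over other spots, at E16.5 first and at E13.5 second, were −1.67 and 4.53 for Casq1 and −2.09 and 1.09 for Myl1, an alkali myosin light chain of fast skeletal muscle. Among enzymes of fatty acid oxidation they were −1.31 and 1.56 for Acadm, −1.62 and 1.06 for Acadvl, −1.07 and 1.14 for Hadha, and −1.04 and 1.67 for Hadhb. For Etfb, which passes their electrons on, they were −1.14 and 1.31. For the lipid carriers they were −1.11 and 2.69 for Cd36 and −3.09 and 2.67 for Fabp4. For the muscle forms of cytochrome c oxidase subunits they were −1.01 and 4.43 for Cox7a1 and −1.50 and 3.75 for Cox8b.

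For some of them the level outside the heart differed more between the stages than the level inside. Cox8b was 165 CPM (154 to 176) in heart spots and 466 CPM in other spots at E16.5, and 61.2 CPM (53.6 to 69.7) and 4.55 CPM at E13.5. Fabp4 was 440.5 CPM in heart spots and 3745 CPM in other spots at E16.5, and 137 and 21.5 CPM at E13.5. Skeletal muscle markers outside the heart summed to 12577 CPM at E16.5 and 751 CPM at E13.5, and their part in these ratios was not tested.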

How the results depend on the processing

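No paired analysis was possible because each embryonic stage is 1 section. Of the 60 recomputed main values, 36 stayed within 1.5 times or within their interval and 24 moved, and the cause of the movements was not tested. Genes higher in heart spots in both sections numbered 198 with a higher minimum of UMIs and 1264 with none, against 299. Heart-enriched genes higher at E16.5 numbered 172 with reduced totals, 185 with centred ratios, 48 with the higher minimum and 1153 with none, against 101, and lower ones 45 and 834 with the last 2, against 81. Genes towards ventricle-leaning spots numbered 64 with 200 spots, 6 in the largest group, 6 with the higher minimum and 286 with none, against 21. Those towards atrium-leaning spots numbered 39 with 50 spots, 179 with 200, 12 in the largest group, 2 with the higher minimum, 350 with none and 42 with classes of 15 spots, against 19. The largest group held 22.0% of 50 and 91.5% of 200 spots at E16.5, against 35.0%, and 54.0% and 67.5% at E13.5, against 91.0%. Atrium-side genes lower at E16.5 numbered 163 with reduced totals, against 391, and ventricle-side genes higher at E16.5 numbered 234 with 200 spots, against 104.

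Of 468 recomputed gene ratios 13 changed sign against all heart spots, and of 385 list medians 5 did. In atrium-side spots, of 100 and of 200, the stage ratio was 2.96 and 2.65 for Bmp10, 0.70 and 0.51 for Cited1, 0.24 and 0.11 for Myl2, 0.77 and 0.65 for Myh7, 0.26 and 0.50 for Lyz2, 0.43 and 0.89 for Irx2, 0.78 and 0.52 for the ventricular list and 0.41 and 0.28 for the trabecular list. In ventricle-side spots of 200 it was 0.01 for Myh7 and −0.01 for the list of cardiac nerve and glia. The Bmp10 atrium-side ratio rests on 9 UMIs at E16.5 and 0 at E13.5.

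Each stage is 1 section of unknown plane, so animal, section and plane cannot be told apart from stage, and the intervals leave out all of them. The E16.5 ventricle side holds 10 spots, which limits its measured genes to 5214. Spots can mix cells, and the part of neighbouring lung, thymus and skeletal muscle in their transcript was not tested.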

Other observations

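Over all genes, 4.96% were at least 2-fold higher and 3.06% at least 2-fold lower in E16.5 heart spots, and the counts below stand beside these shares. Of 15 measured genes of the intercalated disc and costamere, the junctions that tie heart muscle cells together and to their matrix, 1 was at least 2-fold higher and 2 lower at E16.5 over all heart spots (median −0.05). Dsp, desmoplakin, was 154 CPM (143 to 165) at E16.5 and 218 CPM (203 to 233) at E13.5, and Fhl2, a LIM protein of the sarcomere, 184 and 239.6 CPM. Of 20 glycolytic and glucose genes, 1 was higher and 1 lower (median −0.17). The higher one, Hk2, the insulin-responsive hexokinase, was 36.6 CPM (31.5 to 42.2) at E16.5 and 14.4 CPM (10.8 to 18.8) at E13.5, and the lower one, Slc2a1, the fetal-type glucose transporter, was 68.04 CPM (61.1 to 75.6) and 138 CPM (126 to 150.0). In other spots the ratios of both genes had the same sign, 1.22 and −0.73.

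Among 14 membrane channel and gap junction genes, none was at least 2-fold higher and 1 lower over all heart spots. In the wider ventricle-side set, 3 of 13 were higher and 2 lower, against 2.57% and 5.48% of all genes, and Kcnip2, a subunit of the transient outward potassium current of the ventricle, was 27.5 CPM (22.1 to 33.8) at E16.5 and 0.857 CPM (0.177 to 2.505) at E13.5. Gja1, connexin 43, the gap junction protein of working muscle, was 186 CPM (151 to 226) at E16.5 and 222 CPM (201 to 244) at E13.5 in ventricle-side spots, and 77.8 CPM (69.96 to 86.3) and 30.9 CPM (23.5 to 40.00) in atrium-side spots. The atrium-side difference was the larger. Of 32 growth signal genes, 5 were at least 2-fold lower and none higher (median −0.30). Igf2, a fetal growth factor, was 930.2 CPM at E16.5 and 1459 CPM at E13.5, and Vegfa, the vessel growth factor, 77.4 and 52.4 CPM.

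Cells other than muscle also left transcript in the heart spots. Of 8 measured macrophage genes, 1 was at least 2-fold higher at E16.5, Lyve1, a hyaluronan receptor of tissue macrophages and lymphatic endothelium, at 25.6 CPM (21.4 to 30.4) against 6.12 CPM (3.88 to 9.19) at E13.5. Of 10 coronary vessel genes 4 were higher and none lower (median 0.50), against 4.96% higher over all genes. Of 10 valve and cushion genes 2 were higher and 3 lower (median −0.27), against 4.96% and 3.06%. Postn, a matrix protein of valves and fibroblasts, was 853 CPM at E16.5 and 319 CPM at E13.5. Of the list of cardiac nerve and glia, 3 of 3 measured genes were at least 2-fold higher over all heart spots (median 2.02), none of the 3 in the wider ventricle-side set (median −0.01). Stmn2, a tubulin-binding protein of neurons, was 135 CPM (125 to 145) at E16.5 and 30.6 CPM (25.3 to 36.7) at E13.5, and Tubb3, a neuronal tubulin, 103 and 25.3 CPM. In other spots both ratios had the other sign, −0.63 and −1.03. Of 4 measured cartilage genes 3 were higher (median 1.25), with Col2a1, the cartilage collagen, at 285 CPM (270.2 to 299.7) at E16.5 and 116 CPM (105 to 127) at E13.5, and its ratio in other spots was −0.46. The part of neighbouring tissue in these values was not tested.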
